A study of Rana omeimontis with 6 samples.

Results

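Enzymes that attach glutathione, glucuronic acid or sulfate to small molecules, and enzymes that remove peroxides and superoxide, were followed in liver RNA of tadpoles of the frog Rana omeimontis. Members were the transcript clusters of the deposited matrix, here called features, whose first protein description held 1 of 9 name parts: glutathione, UDP-glucuronosyltransferase, sulfotransferase, peroxiredoxin, thioredoxin, superoxide dismutase, catalase, glutaredoxin or glutamate--cysteine ligase. Names with heparan, carbohydrate or chondroitin were left out. Of 121726 features 171 met the name rule, and 89 of these reached 1 FPKM or more in at least 3 libraries. FPKM is a level per transcript length and per mapped total. The 89 are among 40548 features that passed the same filter and were tested. They carried 65 different names, 17 of them on more than 1 feature, and such features are numbered here by falling level (HPGDS #1, HPGDS #2).

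The libraries were 3 from livers before ontogenetic fat accumulation and 3 from livers after it, with tadpoles taken at a natural reserve in Sichuan in both stages. The labels used here name no strain, treatment, age or sex and do not say whether a library was 1 animal or a pool, so the p-values measure the spread between these libraries, which may be technical. A positive difference means a higher level after fat accumulation. Differences were taken between log2 values of FPKM + 1, so changes of low features are understated. They were tested with limma over all 40548 features, with the Benjamini-Hochberg adjustment and a threshold of 0.05.

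Conjugation makes lipid-soluble compounds, such as steroids, bile pigments, drugs and products of lipid oxidation, more water-soluble so that they can be carried out of the cell. Glutathione transferases use glutathione, UDP-glucuronosyltransferases use UDP-glucuronic acid, and cytosolic sulfotransferases use the sulfate donor PAPS. Glutathione peroxidases, peroxiredoxins and catalase break down peroxides, and superoxide dismutases convert superoxide to hydrogen peroxide. The glutathione and thioredoxin reductases restore the thiols that glutathione peroxidases and peroxiredoxins consume. The liver is a main site of both kinds of reaction.

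Summed FPKM lay between 1358665 and 1442121 per library. The number of reads behind a value is unknown. Taking after replicate 1 as 1, the modal ratio of low FPKM values in the other 5 libraries was 1.03 to 1.06. This is a ratio of FPKM values and not of read depth. All libraries held much RNA of digestive enzymes: features named for 9 exocrine pancreas markers took 21.9% to 34.0% of summed FPKM before and 26.1% to 33.9% after. Of 11 hepatocyte markers 8 matched a feature by name. Their summed FPKM was 7658 to 9128 before and 11901 to 13372 after, with the libraries of the stages apart. Among them albumin went from 15.0 to 69.8 FPKM before to 353 to 539 after, and transthyretin from 41.9 to 151 to 1107 to 1388. APOA1 was apart as well, at 1409 to 4065 before and 4098 to 4888 after. APOB, FGA, FGG and TF overlapped between the stages, with TF at 591 to 1300 before and 614 to 827 after. Prothrombin, another product of hepatocytes, was at 556 to 778 before and 580 to 748 after. In bulk RNA fewer cells of a type and less RNA per cell cannot be told apart. Sums of other marker lists were apart between the stages as well. The 6 fibroblast and stellate cell markers summed to 16.5 to 25.7 FPKM before and 34.3 to 51.8 after. Most of this was COL1A2 (8.69 to 14.3 before, 19.6 to 31.9 after) and COL3A1 (5.39 to 8.34 before, 11.5 to 18.6 after). The other markers of this list overlapped, and COL1A1 was listed at 0 in all after libraries. The 5 matched of 6 intestine markers summed to 74.1 to 145.7 before and 164 to 249 after. Among them SI was higher after (43.3 to 69.3 before, 135 to 206 after). VIL1 was lower after (20.2 to 27.8 before, 6.36 to 12.4 after), and FABP2, ALPI and CDH17 overlapped between the stages. The 3 matched of 5 bile duct markers summed to 340 to 369 before and 219 to 317 after. KRT19 made up most of this sum (273 to 338 before, 187 to 265 after), and EPCAM and CFTR overlapped. The 5 matched of 6 erythroid markers summed to 16609 to 21567 before and 23872 to 27535 after. Nearly all of this was globins, at 16590 to 21536 before and 23843 to 27498 after. SLC4A1 and EPB42 were also higher in all after libraries, at 8.03 FPKM or less. ALAS2 (15.2 to 29.6 before, 20.7 to 32.1 after) and SPTB overlapped. Macrophage and endothelium markers overlapped, at 101 to 159 and 6.11 to 10.3 FPKM over all libraries. The part of these marker differences in the differences below was not tested.

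After fat accumulation 6 of 19 glutathione transferase features rose and 13 did not pass. No peroxiredoxin, superoxide dismutase, catalase or glutaredoxin feature passed, and the difference between these families was not tested. Of the 89 members 14 rose, 2 fell and 73 did not pass. The background over all features tested was 8.64% called, with 4.64% higher and 4.0% lower, against 17.98% of the members called, 15.7% higher and 2.25% lower. The members were more abundant than most features, with a median level of 14.8 FPKM against 2.63. Among the 6678 features with a mean of 10 FPKM or more, 18.2% were called, 12.1% higher and 6.12% lower. Of the 52 members at that level 25% were called and 23.1% were higher. The median log2 difference was 0.32 for the members and -0.08 for all features. The libraries of the stages did not overlap in 41 members with after above and in 8 with before above. Of the 41, 5 passed the filter through the after libraries alone, and of the 8, 2 through the before libraries alone. In these the lack of overlap was a condition of entry. The 41 and 8 are 55.1% of the members, against 32.5% of all features. Of all features 15.7% had after above and 16.8% before above. At a mean of 10 FPKM or more the shares were closer, at 55.8% of the members and 46.8% of the features. There 26 of 52 members had after above and 3 before above, against 27.9% and 18.9% of the features. With libraries rescaled to equal summed FPKM 14 members were higher and 0 lower. Quantile normalization gave 16 higher and 2 lower, and both median-of-ratios factors and sums equalized outside the pancreas names gave 20 and 2. With 1 library left out 7 to 10 were higher and 0 lower. Over all 40548 features the main fit gave 1882 higher and 1620 lower. Equal summed FPKM gave 1953 and 1426 features, and quantile normalization 2563 and 2025. Median-of-ratios factors gave 2738 and 2005, and sums equalized outside the pancreas names 2402 and 1908. Fits with 1 library left out gave 392 to 1184 features higher and 299 to 917 lower. Of the 16 called members 2, UGT3A1 and SULT6B1 #6, passed the filter through 1 stage alone, so their difference was a condition of entry and the counts are a description.

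**Figure D1:**
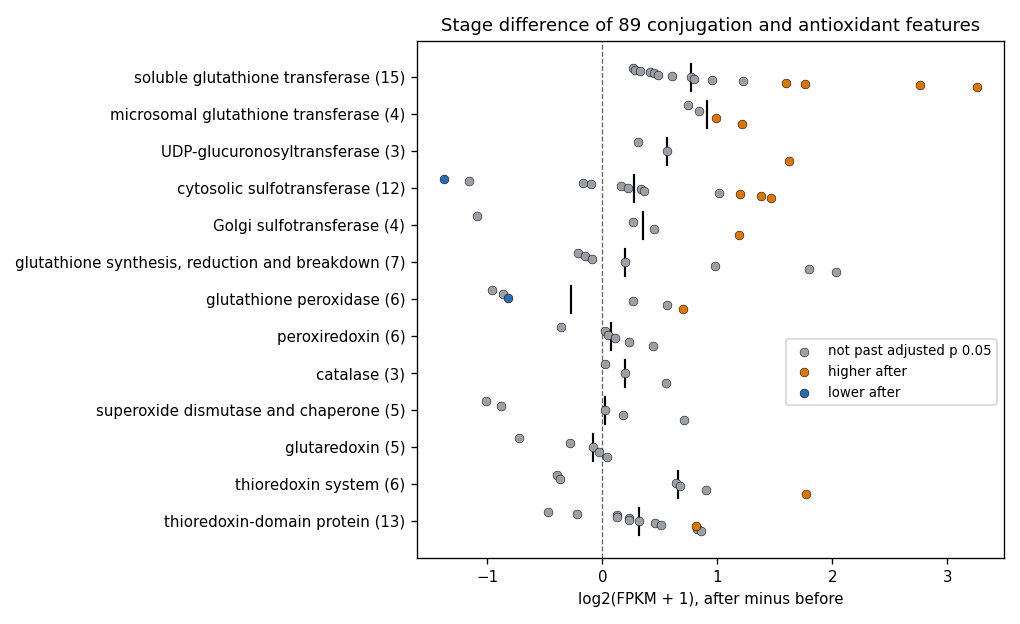
Each point is 1 feature, placed by its log2(FPKM + 1) difference, after minus before, in rows by role with the number of features in brackets. Orange points rose, blue points fell, grey points did not pass, and the black tick is the median of the row. All 19 glutathione transferase features lie right of 0, and the peroxiredoxin and glutaredoxin medians lie near it.

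Counts for the conjugating and the redox enzymes are given side by side, and the difference between them was not tested. Of 34 conjugating features (glutathione transferases, UDP-glucuronosyltransferases and cytosolic sulfotransferases) 10 rose and 1 fell, with a median log2 difference of 0.68. Of 31 features for peroxide, superoxide and thiol-disulfide enzymes 2 rose and 1 fell, with a median of 0.04. The shares called were 32.35% of the conjugating and 9.68% of the redox features. Of the conjugating calls 2, UGT3A1 and SULT6B1 #6, passed the filter through 1 stage alone, so their difference was a condition of entry. No redox call did. Of all features tested 8.64% were called, and 18.2% of those with a mean of 10 FPKM or more. The summed level of the conjugating features was 1420, 1338 and 1355 FPKM before and 3338, 3549 and 3346 after. That of the redox features was 2565, 2628 and 2778 before and 2705, 2681 and 2368 after. The after libraries were all above the before libraries in the first sum, and the stages overlapped in the second. Glutathione transferases held 1279, 1225 and 1215 FPKM of the conjugating sum before and 3076, 3340 and 3122 after. Cytosolic sulfotransferases held 97.5 to 121 before and 177 to 238 after, and UDP-glucuronosyltransferases 14.8 to 21.8 before and 23.6 to 32.8 after. These sums are a description and were not tested. All members together held 0.305% ± 0.0130 of summed FPKM before and 0.464% ± 0.0211 after (SD, n = 3 each). With the pancreas-named features left out of the total it was 0.429% ± 0.0186 and 0.652% ± 0.0216.

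Among soluble glutathione transferases, 4 of 15 features rose and 0 fell, and all 15 had a positive difference. The share called was 8.64% over all features, and 18.2% at a mean of 10 FPKM or more. Of all 40548 features tested 18583 had a positive difference, and 3623 of the 6678 with a mean of 10 FPKM or more. GSTT1, named glutathione S-transferase theta 1, a class that acts on small halogenated compounds and on some peroxides in mammals, was at 52.1, 68.1 and 54.6 FPKM before and at 396, 706 and 639 after. The lowest after library was more than 5 times the highest before library. The mean ratio was 9.96 and the log2 difference 3.26 ± 0.252 (SE, adjusted p = 0.00317), the largest of the 89 members. GST3 #1, which carries the name of an alpha-class transferase of birds, was at 24.8, 21.1 and 25.3 FPKM before and at 235, 144 and 135 after. Its stages were far apart, with a mean ratio of 7.23 and a log2 difference of 2.76 ± 0.248 (adjusted p = 0.00439). Alpha-class enzymes reduce organic hydroperoxides and bind bile pigments in mammals.

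GSTM2, of the mu class that conjugates epoxides and quinones, was at 90.2, 67.9 and 58.8 FPKM before and at 252, 243 and 237 after. The after libraries lay close together and above all before libraries (log2 difference 1.76 ± 0.191, adjusted p = 0.00700). HPGDS #1 is named for the glutathione-requiring prostaglandin D synthase, a sigma-class transferase. It was at 213, 201 and 183 FPKM before and at 591, 614 and 609 after (1.60 ± 0.130, adjusted p = 0.00361). With GSTT1 and the microsomal MGST3 it was among the most abundant members after fat accumulation, each holding 9.13% to 9.51% of the members' sum there. All 4 of these transferases passed the test with each of the 6 libraries left out in turn.

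The other soluble transferases did not pass. GSTP1, the pi-class enzyme named after a toad protein, was at 159, 171 and 149 FPKM before and 237, 229 and 206 after (0.49, adjusted p = 0.0845). GSTO1, an omega-class enzyme with thioltransferase activity, was at 61.6, 59.9 and 99.6 before and 143, 155 and 123 after (0.95, adjusted p = 0.0565). Neither overlapped between the stages. GSTO1 passed with median-of-ratios scaling (adjusted p = 0.0148), with quantile normalization (0.0276) and with sums equalized outside the pancreas names (0.0243). GSTK1, of mitochondria and peroxisomes, had a mean of 77.2 ± 2.83 before and 106.7 ± 15.8 after (SD, n = 3 each, limma adjusted p = 0.147). The feature described only by an amoeba transferase was at 1.39, 0.14 and 0 FPKM before and 1.86, 2.38 and 2.62 after (adjusted p = 0.0977), and it may not be frog RNA.

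Of 4 microsomal glutathione transferase features 2 rose and 0 fell, and none overlapped between the stages. These membrane proteins of the endoplasmic reticulum conjugate glutathione and reduce lipid hydroperoxides. Of all features tested 8.64% were called and 32.5% did not overlap. At a mean of 10 FPKM or more these shares were 18.2% and 46.8%. MGST3, the most abundant member over the 6 libraries, was at 281, 223 and 275 FPKM before and 588, 614 and 605 after (1.22 ± 0.144, adjusted p = 0.00877). It passed with each library left out. MGST1 was at 94.8, 138 and 109 before and 230, 232 and 213 after (0.99 ± 0.180, adjusted p = 0.0249). With 1 library left out it passed only without before replicate 2, in a range of adjusted p from 0.0359 to 0.0935, and it missed the threshold without a variance trend (0.0526). MGST2 #1 was at 27.6, 21.2 and 25.4 before and 46.5, 38.2 and 41.9 after (0.75, adjusted p = 0.0541), and passed in 2 of 4 rescalings (lowest 0.0289).

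**Figure D2:**
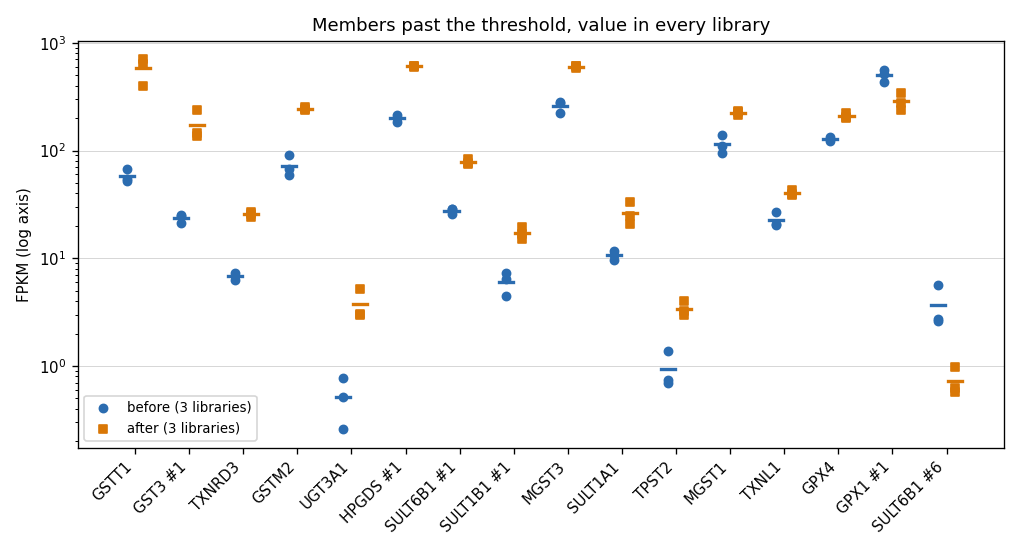
FPKM on a log axis of the 16 members past the threshold, ordered by log2 difference, with 1 point per library and a bar at the mean of each stage (blue circles before, orange squares after). GSTT1 rises from 52.1 to 68.1 FPKM to 396 to 706, and the last 2 features, GPX1 #1 and SULT6B1 #6, are lower after. UGT3A1 and SULT6B1 #6 passed the filter through 1 stage alone.

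UDP-glucuronosyltransferases gave 1 increase among 3 features under the rule, against 4.64% of all features higher. UGT3A1 was at 0.78, 0.52 and 0.26 FPKM before and 3.06, 2.98 and 5.16 after (1.62 ± 0.293, adjusted p = 0.0246). It missed the threshold whenever 1 library was left out, at adjusted p from 0.0526 to 0.0813. UGT3A1 passed the filter through the after libraries alone, so its difference was a condition of entry. UGT1A1, named for the enzyme that conjugates bilirubin in mammals, was at 15.1, 7.40 and 11.5 before and 11.6, 19.6 and 20.1 after (adjusted p = 0.334), with overlap. UGT2A1 had means of 6.74 ± 0.819 before and 8.63 ± 0.967 after (SD, n = 3 each, limma adjusted p = 0.394). Features that spell the name without a hyphen fell outside the rule and were looked at after the values were seen. UGT1A6 #1, of the family that conjugates phenols in mammals, was at 3.57, 1.33 and 4.32 FPKM before and 33.2, 30.0 and 27.6 after. That is a log2 difference of 3.02 (adjusted p = 0.00743), and it passed with each library left out. UGT1A6 #2 rose too, by 1.09 (adjusted p = 0.0407), and lost the call with any 1 library left out. UGT1A6 #3 was at 0.31, 3.00 and 9.28 FPKM in the after libraries and did not pass (adjusted p = 0.752).

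Of 12 cytosolic sulfotransferase features 3 rose and 1 fell, with a median of 0.28. Over all features tested 8.64% were called, and 18.2% at a mean of 10 FPKM or more. The 1 sulfotransferase that fell, SULT6B1 #6, passed the filter through the before libraries alone, so its difference was a condition of entry. SULT6B1 #1, whose name belongs to a family of unsettled substrates, was at 28.6, 25.7 and 28.7 FPKM before and 82.6, 77.2 and 75.4 after. The libraries of each stage lay close together (1.47 ± 0.155, adjusted p = 0.00642, past the threshold with each library left out). SULT1A1, a phenol sulfotransferase in mammals, was at 11.7, 10.8 and 9.63 before and 33.3, 21.0 and 24.7 after (1.20 ± 0.228, adjusted p = 0.0276). It lost the call with any 1 library left out, at adjusted p up to 0.0913. SULT1B1 #1, of a family that sulfates thyroid hormones and phenols in mammals, was at 7.23, 6.41 and 4.44 before and 19.5, 15.0 and 16.8 after (1.38 ± 0.239, adjusted p = 0.0220). Dropping before replicate 3 left it past the threshold (adjusted p = 0.0447), and dropping any of the other 5 libraries did not (up to 0.0817).

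SULT2A1, the sulfotransferase of dehydroepiandrosterone and bile acids in mammals, was at 8.12, 12.0 and 10.9 FPKM before and 32.7, 18.7 and 16.7 after. The stages did not overlap, but the difference of 1.02 did not pass (adjusted p = 0.0870), and after replicate 1 stood well above the other 2. SULT6B1 #6 fell from 2.71, 2.61 and 5.67 FPKM to 0.57, 0.98 and 0.63 (-1.38 ± 0.323, adjusted p = 0.0480). It missed the threshold at equal summed FPKM (0.0538) and without any 1 library, at adjusted p up to 0.137. SULT2B1 #1, of cholesterol sulfation, was at 12.5 to 22.7 before and 15.0 to 16.3 after (adjusted p = 0.712).

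Golgi sulfotransferases act on proteins and glycolipids and take no part in clearance. TPST2, a tyrosylprotein sulfotransferase, rose from 1.39, 0.69 and 0.74 FPKM to 3.25, 3.99 and 2.96 (1.19 ± 0.262, adjusted p = 0.0408). It lost the call at a pseudocount of 0.1 (adjusted p = 0.0503) and with any 1 library left out, up to 0.131. TPST1 #2 was at 2.39, 3.33 and 2.81 before and 1.18, 0.30 and 1.05 after (-1.09, adjusted p = 0.0698), while TPST1 #1 had a positive difference of 0.45 (adjusted p = 0.430). GAL3ST1, of sulfatide synthesis, stayed between 0.64 and 1.32 FPKM in all 6 libraries.

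**Figure D3:**
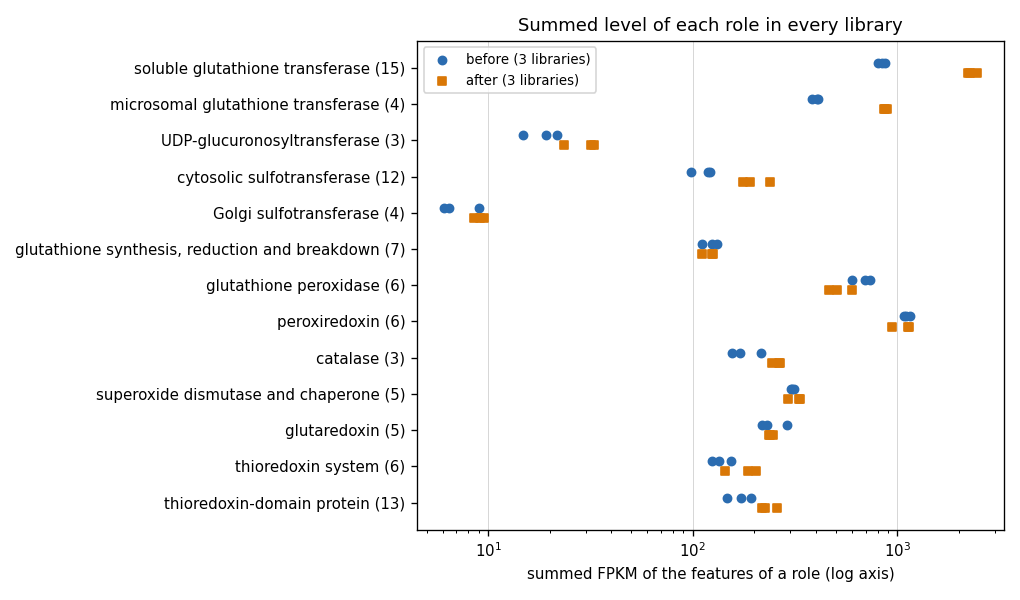
Summed FPKM on a log axis of the features of each role, with 1 point per library (blue circles before, orange squares after) and the number of features in brackets. Soluble glutathione transferases go from 805 to 874 FPKM before to 2210 to 2452 after, and peroxiredoxins stay at 946 to 1150 in all 6 libraries.

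No feature for glutathione synthesis, reduction or breakdown passed among 7. GCLC, the catalytic subunit of glutamate-cysteine ligase and the rate-limiting enzyme of glutathione synthesis, was at 4.04, 2.91 and 4.74 FPKM before and 8.98, 8.85 and 7.76 after. The stages were apart, and the difference of 0.98 ± 0.233 just missed the threshold (adjusted p = 0.0506). It passed in 3 of 4 rescalings, at 0.0181 with median-of-ratios factors. A second GCLC feature with a single hyphen in its name was at 1.97 to 4.28 before and 2.86 to 5.94 after. GCLM, the modifier subunit, was at 0 to 0.72 before and 1.20 to 1.88 after (adjusted p = 0.120). GCLM passed the filter through the after libraries alone, so its lack of overlap was a condition of entry. Both features were looked at after the values were seen. GSR, the glutathione reductase, was at 17.5, 12.5 and 12.1 before and 11.6, 13.4 and 13.8 after (adjusted p = 0.833). CHAC1 breaks glutathione down in the cytosol. CHAC1 #1 was at 1.10, 0.24 and 0.83 before and 1.60, 8.17 and 7.38 after (1.80, adjusted p = 0.0853). CHAC1 #2 was listed at 0 in all before libraries and at 1.17, 2.48 and 8.05 after, and passed the filter through the after libraries alone, so its difference was a condition of entry. In both features after replicate 1 was the lowest of its stage. ESD, which hydrolyses the glutathione adduct of formaldehyde, was at 98.1, 91.0 and 89.9 before and 79.1, 82.2 and 79.7 after (adjusted p = 0.408).

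Glutathione peroxidases split, with 1 of 6 higher and 1 lower, against 8.64% of all features called and 18.2% at a mean of 10 FPKM or more. GPX1 #1, the cytosolic peroxidase, was the most abundant of them, at 436, 518 and 554 FPKM before and 343, 278 and 239 after. Its log2 difference was -0.82 ± 0.184 (adjusted p = 0.0437). The call was lost at equal summed FPKM (adjusted p = 0.0529), at a pseudocount of 0.1 (0.0511), without a variance trend (0.0901) and with any 1 library left out (0.0513 to 0.133). GPX4, which reduces peroxidized phospholipids inside membranes, was at 128, 134 and 123 before and 222, 202 and 204 after. It rose by 0.70 ± 0.135 (adjusted p = 0.0288), and lost the call with quantile normalization (0.0551), without a trend (0.0843) and with any 1 library left out (0.0566 to 0.101). GPX1 #2 was at 17.1, 33.0 and 22.4 before and 20.1, 11.5 and 6.42 after, with overlap (adjusted p = 0.210). GPX3, the plasma enzyme, was at 17.8, 10.6 and 31.4 before and 10.3, 10.97 and 7.70 after (adjusted p = 0.215). GPX7 of the endoplasmic reticulum was at 0.99, 0.98 and 0.83 before and 2.08, 1.66 and 1.82 after. It passed the filter through the after libraries alone, so its lack of overlap was a condition of entry. GPX8, of the same compartment, was at 1.05, 0.84 and 0.95 before and 1.72, 1.1 and 1.26 after (adjusted p = 0.536), without overlap.

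Peroxiredoxins were abundant in both stages, and 0 of 6 passed. The leading feature carries the newt name ABP-25 and no number of the family, and was at 493, 481 and 466 FPKM before and 392, 428 and 310 after (-0.36, adjusted p = 0.210). PRDX2, a cytosolic enzyme abundant in red cells, was at 157 to 191 before and 142 to 210 after (adjusted p = 0.955). The summed erythroid markers, nearly all globins, were higher in all after libraries, and their part here was not tested. PRDX3 of mitochondria was at 118 to 165 before and 140 to 180 after, and PRDX4 of the endoplasmic reticulum at 133 to 150 and 137 to 161. PRDX5 was at 115 to 127 before and 120 to 139 after. PRDX6, which reduces phospholipid hydroperoxides, was at 49.5, 52.5 and 51.8 before and 64.5, 72.6 and 73.4 after. It was the only peroxiredoxin with after above before in all libraries (0.44 ± 0.151, adjusted p = 0.119).

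Catalase and superoxide dismutase features did not pass either. CAT #1, the main catalase of peroxisomes here, was at 204, 141 and 156 FPKM before and 251, 249 and 229 after (0.56 ± 0.179, adjusted p = 0.104), without overlap. SOD2, the manganese enzyme of mitochondria, was at 29.0, 36.5 and 34.2 before and 57.5, 58.9 and 49.1 after (0.71 ± 0.177, adjusted p = 0.0549). It passed with median-of-ratios scaling (0.0399) and with sums equalized outside the pancreas names (0.0329). SOD1 #1, the copper-zinc enzyme of the cytosol, was at 145, 196 and 219 before and 216, 226 and 188 after (adjusted p = 0.605). SOD1 #2 varied more within stages than between them, at 86.6, 45.5 and 8.39 before and 21.4, 6.79 and 25.9 after. SOD3, the extracellular enzyme, was at 9.53, 5.99 and 12.5 before and 3.41, 3.99 and 6.18 after (-0.88, adjusted p = 0.145). CCS, which loads copper into SOD1, had means of 30.1 ± 8.07 and 30.3 ± 6.92 (SD, n = 3 each, limma adjusted p = 0.974).

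Glutaredoxins, which use glutathione to reduce protein disulfides or carry iron-sulfur clusters, gave 0 calls among 5. GLRX5, of mitochondrial iron-sulfur assembly, was at 122, 134 and 180 FPKM before and 136, 154 and 153 after (adjusted p = 0.922). GLRX was at 96.8, 74.8 and 94.2 before and 89.97, 84.1 and 76.1 after (adjusted p = 0.809). GLRX2 #2 was at 1.4, 1.4 and 1.36 before and 0.39, 0.69 and 0.29 after. It passed the filter through the before libraries alone, so its lack of overlap was a condition of entry.

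In the thioredoxin system 1 of 6 features rose, against 4.64% of all features and 12.1% at a mean of 10 FPKM or more. TXNRD3, a thioredoxin reductase with a glutaredoxin domain in mammals, was at 6.92, 6.25 and 7.32 FPKM before and 24.1, 27.0 and 25.9 after. The stages were far apart relative to their spread (1.77 ± 0.180, adjusted p = 0.00594, past the threshold with each library left out). The mitochondrial reductase TXNRD2 was at 8.58, 9.63 and 11.6 before and 8.41, 7.32 and 6.66 after (-0.37, adjusted p = 0.332). The feature named thioredoxin-like after a fish protein was at 40.9, 42.7 and 47.8 before and 70.9, 86.9 and 56.1 after (0.67, adjusted p = 0.0929), and passed in 2 of 4 rescalings (lowest 0.0411). TXN2 #1, the mitochondrial thioredoxin, was at 4.85, 6.95 and 8.18 before and 9.11, 12.4 and 11.04 after (adjusted p = 0.161). TXNIP, an inhibitor of thioredoxin that responds to glucose in mammals, was at 68.9, 86.0 and 46.8 before and 23.5, 61.7 and 83.2 after, with a wide spread in both stages (adjusted p = 0.657).

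Thioredoxin-domain proteins with other tasks gave 1 increase among 13, against 4.64% of all features and 12.1% at a mean of 10 FPKM or more. TXNL1, which binds the proteasome, was at 20.2, 20.7 and 27.0 FPKM before and 38.5, 43.4 and 39.3 after (0.82 ± 0.188, adjusted p = 0.0460). Among the fits with 1 library left out it passed only without before replicate 3 (0.0445, up to 0.149), and it missed the threshold without a trend (0.0751). TMX2, of the endoplasmic reticulum membrane, was at 10.8, 13.3 and 10.4 before and 20.9, 25.2 and 17.8 after (adjusted p = 0.0617), and passed in 1 of 4 rescalings (0.0463). TXNDC5, a disulfide isomerase, was at 55.4, 43.8 and 60.0 before and 84.7, 64.3 and 70.5 after (adjusted p = 0.197). TXNL4A is part of the spliceosome and no redox enzyme. Its 2 features had differences of 0.86 and -0.47, and neither passed (adjusted p = 0.103 and 0.264), though the first did in 1 of 4 rescalings (0.0395).

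**Figure D4:**
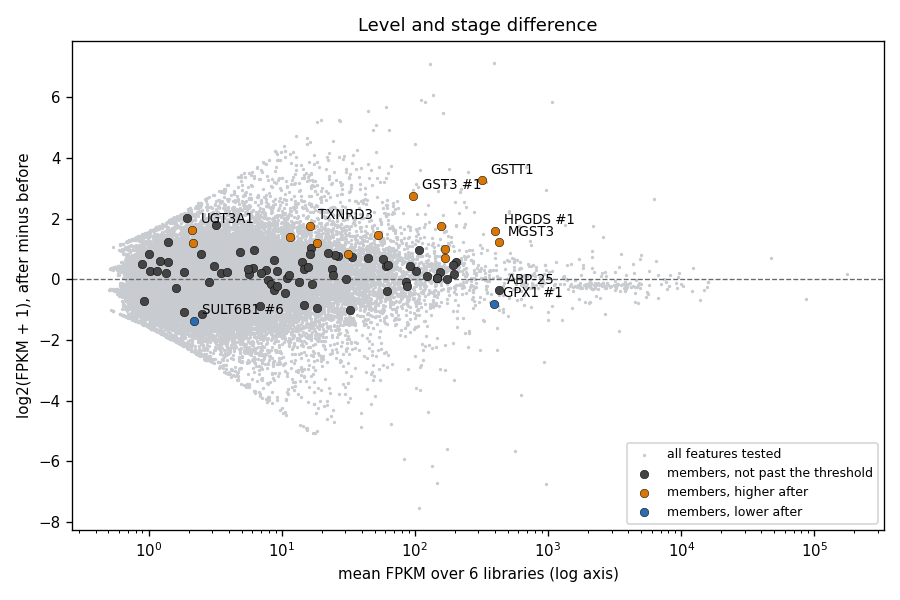
Mean FPKM over the 6 libraries on a log axis against the log2(FPKM + 1) difference, after minus before, for all 40548 features tested (light grey) and the 89 members (dark grey not past the threshold, orange higher, blue lower). Most members lie right of the bulk of features, and GSTT1 and GST3 #1 lie highest among the members.

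Features that share a protein name did not share 1 pattern. HPGDS #1 was near 3 times higher after (ratio 3.03), whereas HPGDS #2 and #3 had differences of 0.32 and 0.41 (adjusted p = 0.432 and 0.322). GST3 #1 differed by 2.76, GST3 #2 by 0.80 (adjusted p = 0.0847) and GST3 #3 by 0.26 (adjusted p = 0.643). SULT1B1 #1 rose, and SULT1B1 #2 was at 2.52, 2.50 and 6.96 FPKM before and 0.93, 1.56 and 0.77 after (-1.16, adjusted p = 0.117). Of the 6 SULT6B1 features the first rose, the last fell and the other 4 did not pass. The last, SULT6B1 #6, passed the filter through the before libraries alone, so its difference was a condition of entry. The difference between features of a name was not tested. Clusters of near-identical copies or of pieces of 1 gene can share reads, so levels of single features are uncertain. With FPKM summed over each name, 15 of 65 names were higher and 1 lower. Of all 40524 features and names in that fit 1883 were higher and 1619 lower.

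**Figure D5:**
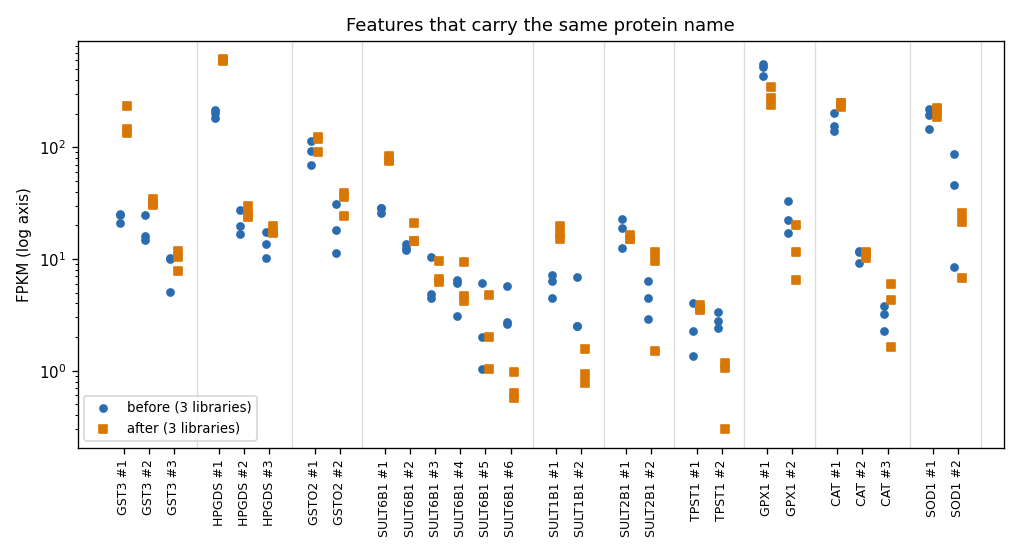
FPKM on a log axis of features that share a protein name, numbered by falling level, with 1 point per library (blue circles before, orange squares after). The first GST3, HPGDS and SULT6B1 features are apart between the stages, as are others such as GST3 #2 and SULT6B1 #2. The SULT6B1 #6 feature is lower after, and it passed the filter through the before libraries alone.

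Other genes of these pathways came from 7 lists. Of 54 symbols 27 matched a feature that passed the filter, with 56 features, of which 7 were higher and 4 lower. Of all features tested 8.64% were called, 4.64% higher and 4.0% lower. At a mean of 10 FPKM or more 18.2% of the features were called. The median log2 difference of the 56 was 0.14. Epoxide hydrolases, which open the epoxides that cytochromes P450 form, held 6 of the 7 increases, with 4 of 6 EPHX1 features and both EPHX2 features. With quantile normalization 3 of these EPHX1 features (#2, #4 and #5) lost the call, at adjusted p of 0.0531, 0.0627 and 0.0684. EPHX1 #3 was at 16.3, 12.0 and 10.1 FPKM before and 44.9, 36.3 and 48.7 after (1.70, adjusted p = 0.0128). Without after replicate 3 the call was lost (adjusted p = 0.0594). EPHX2 #1, which also hydrolyses fatty acid epoxides, was at 41.4, 33.6 and 39.5 before and 121, 74.2 and 86.1 after (1.25, adjusted p = 0.0241), and no fit with a library left out kept the call. No methyltransferase or acetyltransferase feature passed.

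The remaining lists gave few calls. Of 10 glutathione breakdown features 1 rose and 1 fell. GGCT, which acts on gamma-glutamyl peptides, rose from 2.68, 3.59 and 2.70 FPKM to 9.77, 11.5 and 12.0 (1.60, adjusted p = 0.0121), and passed in 3 of 6 fits on 5 libraries. OPLAH #1, which returns 5-oxoproline to glutamate, fell from 9.14, 8.45 and 10.7 to 3.05, 4.24 and 4.27 (-1.11, adjusted p = 0.0327), but passed in 0 of 6 such fits. OPLAH #2 (0.83, adjusted p = 0.377) and OPLAH #3 (-1.14, adjusted p = 0.194) differed in direction, overlapped between the stages and did not pass. Among 12 features of conjugate export 0 rose and 1 fell, ABCC5 #1 (19.2, 15.7 and 21.2 to 9.81, 10.5 and 7.37 FPKM, adjusted p = 0.0483), which lost the call at equal summed FPKM (adjusted p = 0.0610) and in all 6 such fits. ABCG2, an exporter of sulfate conjugates, was at 8.53, 4.54 and 4.98 before and 15.1, 36.6 and 14.5 after (1.63, adjusted p = 0.0583), and passed in 2 of 4 rescalings (lowest 0.0439). Cofactor supply gave 0 calls among 2 features. UGDH, which makes UDP-glucuronic acid, was at 15.2, 5.66 and 12.3 before and 8.31, 9.70 and 10.4 after (adjusted p = 0.869). PAPSS2, which makes PAPS, was listed at 0, 9.23 and 13.5 after and at 2.21 to 2.47 before (adjusted p = 0.708). None of 4 features that remove conjugates passed, nor did the regulators KEAP1 (adjusted p = 0.784) and NR1I3 (0.841).

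Stress and redox genes outside the rule gave 2 decreases and 0 increases among 9 features. HMOX1, the inducible heme oxygenase, fell from 56.6, 32.2 and 26.9 FPKM to 6.44, 9.54 and 11.8 (-1.91, adjusted p = 0.0239). SELENOP #2, a plasma carrier of selenium, fell from 630, 451 and 555.2 to 299, 275 and 315 (-0.87, adjusted p = 0.0283), and SELENOP #1 was at 481 to 579 before and 320 to 443 after (adjusted p = 0.108, with 1 of 4 rescalings past the threshold at 0.0439). HMOX1 passed in a fit on 5 libraries only without before replicate 3 (0.0431), and SELENOP #2 only without before replicate 2 (0.0416). NQO1 #1, a quinone reductase and a known target of the stress factor NRF2, was at 1.55, 8.30 and 3.50 before and 11.6, 39.8 and 35.7 after (2.49, adjusted p = 0.0548). The other NQO1 features did not share this direction. NQO1 #2 (-0.08, adjusted p = 0.867) and NQO1 #3 (-0.75, adjusted p = 0.384) overlapped between the stages and did not pass. SRXN1, which repairs overoxidized peroxiredoxins, was at 7.21, 5.27 and 10.2 before and 17.7, 20.4 and 14.4 after (1.14, adjusted p = 0.0531), and passed in 3 of 4 rescalings (lowest 0.0170). Neither NQO1 #1 nor SRXN1 overlapped between the stages.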

How the data were processed

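Liver RNA of 6 tadpole libraries was measured by paired-end sequencing after poly-A selection, per the labels' protocols. The authors deposited 1 matrix of FPKM values with a protein description per transcript cluster, per the file headers. The assembler, aligner and FPKM program are not stated in the labels or headers read here, and no genome was used. Features with 1 FPKM or more in at least 3 of 6 libraries (40548 of 121726) were tested in R 4.3.3 with limma 3.58.1 (lmFit, then eBayes with a variance trend) after a log2 transform of FPKM plus a pseudocount of 1. Tests were two-sided and Benjamini-Hochberg adjusted. As a check of the code, the fit was run on simulated normal values with shifts of known size. This does not measure false calls in these libraries. Tables were made in Python 3.11.15. As transcript lengths are unknown, no counting interval can be given. No libraries held identical values.

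The members, roles and gene lists were chosen with earlier results of these data known, and matched by protein name. Named were members past the threshold, the leading member of each role, a list of known enzymes and the pathway genes with the smallest p in each list; other members and pathway genes were picked after their values were seen. Of the 171 rows under the name rule 82 lay below the filter. The closest inside had a third-highest value of 1.10 FPKM (GPX8) and the closest outside 0.97. Alternatives covered pseudocounts, filters, 4 rescalings, the variance model, the replicate block, leaving out each library and summing by name. Rescaling outside the pancreas names, a wider spelling and leaving out the amoeba-named member were added after seeing the data.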

Additional observations from a re-analysis of the deposited data

How the results depend on the processing

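No named result changed direction past the threshold. Of 1066 values of 63 named results under the alternatives 878 stayed on the same side of the threshold, 171 lost a call and 17 gained one. The 878 include results not called in the main fit, so they do not measure how often a call held. Leaving out 1 library gave 392 to 1184 features higher and 299 to 917 lower, and 7 to 10 members higher and 0 lower. Of the 16 called members 7 (GSTT1, GST3 #1, GSTM2, HPGDS #1, MGST3, SULT6B1 #1 and TXNRD3) passed without each library, and 13 under all 4 rescalings. Without a filter on low values 634 features were higher and 433 lower, with 7 members higher and 0 lower among 169 rows of the name rule. Members lower numbered 1 at a pseudocount of 0.1, at a filter of 5 FPKM, without a trend and with FPKM summed by name, and 0 at equal summed FPKM. In the same order, features lower numbered 1118, 1160, 1556, 1619 and 1426. A wider spelling of the rule gave 16 higher and 2 lower of 94. Same-numbered libraries did not deviate together (r = -0.0049, -0.0387 and -0.0876), so the numbers were not read as pairs. With the replicate block 194 features were higher and 145 lower, and 4 members higher and 0 lower. Fits with 1 library left out or with the replicate block had fewer degrees of freedom. The cause of these changes was not tested. Read depth is unknown, and members near 1 FPKM are the least precise.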
